A study of Mus musculus with 10 samples.

Results

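The genes described here are the Hox cluster genes, the homeobox transcription factors of clusters A, B, C and D, in the epidermis of mice with and without integrin-linked kinase (ILK). A Hox gene was taken from the array where a probe set carried its symbol and no other, which gave 37 Hox genes among the 19938 genes named in this way. Each of the 37 had 1 such probe set, 10 in cluster A and 9 each in clusters B, C and D. Hoxb8 was named only on a probe set that also carried Hoxb7, so it is not reported.

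RNA of epidermis from 10 mice aged 3 days was hybridized to whole-transcript GeneChip arrays, 1 array per mouse and 5 for each genotype. ILK-deficient mice (K14Cre-Ilk f/f) were homozygous for the floxed Ilk allele, and ILK-expressing mice (K14Cre-Ilk f/+) carried 1 floxed allele. Both groups were heterozygous for the KRT14-cre transgene, so the controls also expressed the recombinase and could lose 1 copy of Ilk. The keratin 14 promoter is active in basal keratinocytes and their descendants, including the epithelium of the hair follicle, and other cells of the tissue keep the allele intact. The epidermis was freed from the dermis with dispase, and the body site of the skin taken is not stated in the sources used here.

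Hox genes encode transcription factors that give cells of the embryo their position along the body axis. Genes at the 3′ end of a cluster carry low paralogue numbers and are used towards the head, those at the 5′ end carry high numbers and are used towards the tail and the ends of the limbs, and genes of the same number in different clusters are paralogues. In adult skin, fibroblasts keep a Hox pattern of the body site they came from, keratinocytes express part of the set, and Hoxc13 is known for its part in making the hair shaft.

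The clusters also hold miRNA genes. Their mature sequences are shown because miR-615 is made from within the span of Hoxc5, the Hox gene whose difference passed the test, and because miR-196, which directs cleavage of the Hoxb8 mRNA, has copies in 3 of the clusters. The sequences are from RefSeq (GRCm38.p6), 5′ to 3′, with the seed, bases 2 to 8, in capitals.
miR-615-3p: uCCGAGCCugggucucccucuu
miR-615-5p: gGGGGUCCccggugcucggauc
miR-196a-5p: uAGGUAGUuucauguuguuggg
miR-196b-5p: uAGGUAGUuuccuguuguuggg
miR-10a-5p: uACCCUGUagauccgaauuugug
miR-10b-5p: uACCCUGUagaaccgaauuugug
The arms of miR-615 lie on the plus strand at chr15:103014969-103014990 (3p) and chr15:103014926-103014947 (5p), between the ends of Hoxc5. The miR-196a sequence is encoded at chr11:96265187-96265208 in cluster B and at chr15:102973365-102973386 in cluster C, both on the plus strand, and miR-196b at chr6:52230129-52230150 on the minus strand in cluster A. The miR-10a sequence lies at chr11:96317186-96317208 within the span of Hoxb3, and miR-10b at chr2:74726074-74726096 within the spans annotated for Hoxd3 and Hoxd4, both on the plus strand. miR-10a and miR-10b share 1 seed, and miR-196a and miR-196b share another.

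Of the series as a whole, 32046 of 35556 probe sets reached a linear value of 50 on at least 5 arrays and were tested, and array medians lay between 7.07 and 7.17 on the log2 scale. The 8 keratinocyte markers all passed this filter, with mean log2 values of 11.77 to 14.09. Between the genotypes, as ILK-deficient minus ILK-expressing on the log2 scale, Krt5 differed by -0.08 (limma adjusted p = 0.601). Krt14 was lower, at -0.23 (limma adjusted p = 0.0452), and Trp63, a regulator of basal keratinocytes, was higher, at 0.35 (limma adjusted p = 0.0204). Of the 8 markers 6, Krt5 among them, did not pass, and over all probe sets tested 3.78% passed an adjusted p under 0.05 in limma. Ilk itself averaged 8.94 ± 0.118 (SD, n = 5) in the arrays of ILK-deficient mice against 9.17 ± 0.181 (SD, n = 5) in the controls, a difference of -0.23 (limma adjusted p = 0.253). A gene-level probe set of this array type takes probes from along the whole transcript, and single exons were not examined here, so it checks the labels only weakly. The study itself reported clearly lower array signals for exons of the deleted part of Ilk, and less ILK protein, in ILK-deficient epidermis. Fibroblast, melanocyte and other markers were also measured, and their values stand beside the results they touch. In whole tissue, fewer cells of a type and less RNA per cell cannot be told apart.

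Of the 37 Hox genes, 34 passed the filter. Hoxc10, Hoxc11 and Hoxc12, posterior members of cluster C, did not, with log2 values from 5.13 to 5.70 over all 10 arrays against the filter's 5.64. At the other end, 29 Hox genes were at a linear value of 50 or more on every array and 17 at 100 or more on at least 5 arrays. The values of the remaining low genes lie close to the filter, and the table gives no detection call, so a small difference in such a gene may not be detectable.

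Among the 34 Hox genes tested, Hoxc5 alone differed at an adjusted p under 0.05 in limma, and it was lower in ILK-deficient epidermis. Over all 32046 probe sets 3.78% passed the same threshold, so the share of Hox genes was near that of the array, and it is no result about the Hox genes as a class. At an unadjusted p under 0.05 there were 4 Hox genes, namely Hoxa2, Hoxb7, Hoxc5 and Hoxc13, against 15.9% of all probe sets. Hoxc5 was also the only Hox gene whose values did not overlap between the genotypes, against 6.33% of all probe sets. A change of 1.5-fold or more together with an unadjusted limma p under 0.05 took in 2 Hox genes, Hoxc5 and Hoxc13, against 2.63% of all probe sets. With the unadjusted p of the test named in the study's methods, run on each probe set alone, the same rule took in 1, Hoxc5, against 2.43%.

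Over the 34 genes the median difference, ILK-deficient minus ILK-expressing, was 0.01 on the log2 scale, beside 0 over all probe sets tested, and the range was -0.69 to 0.45. It was above 0 for 20 genes and below 0 for 14. For 29 of the 34 the 95% interval of the difference lay within 1.5-fold in either direction. The 5 whose interval reached further were Hoxa2, Hoxc5, Hoxc8, Hoxc13 and Hoxd8.

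**Figure D1:**
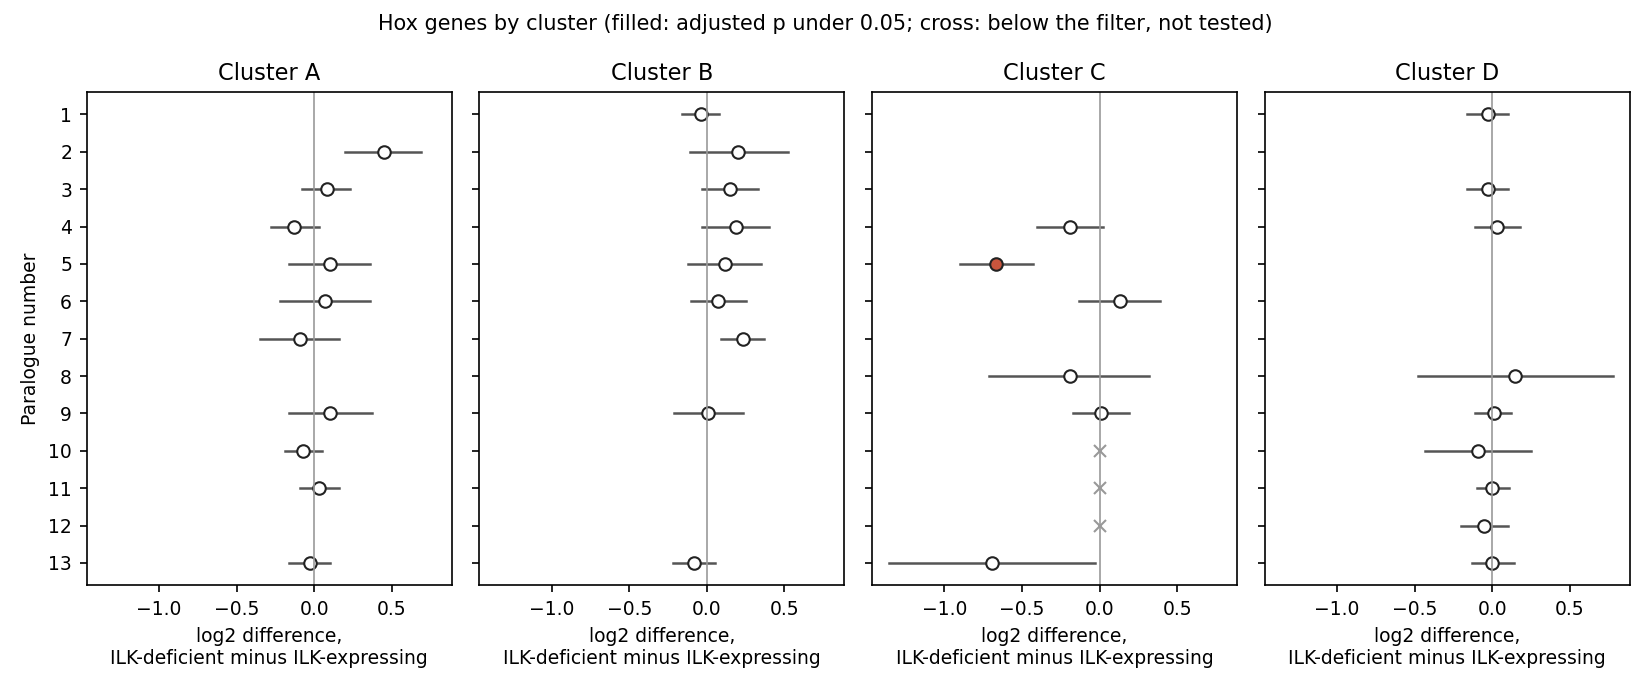
Difference of each Hox gene between ILK-deficient and ILK-expressing epidermis on the log2 scale (x axis), with its 95% interval from limma, by paralogue number (y axis) in clusters A to D. The filled point is Hoxc5 at -0.67, the only gene with an adjusted p under 0.05, and crosses mark Hoxc10, Hoxc11 and Hoxc12, which were below the filter and have no value.

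Hoxc5 is a gene of the middle of cluster C, between Hoxc4 and Hoxc6, and its number places it in the neck and upper trunk. In ILK-deficient replicates 1 to 5 its log2 values were 7.25, 7.28, 6.92, 7.26 and 7.05, and in ILK-expressing replicates 1 to 5 they were 7.89, 7.54, 7.96, 7.71 and 8.01. Every ILK-deficient array was below every ILK-expressing array, with the closest approach between ILK-deficient replicate 2 and ILK-expressing replicate 2. The means were 7.15 ± 0.161 (SD, n = 5) and 7.82 ± 0.193 (SD, n = 5), which put Hoxc5 1.59-fold lower in ILK-deficient epidermis (log2 difference -0.67, SE 0.107, 95% interval -0.90 to -0.43, limma adjusted p = 0.00906). The exact permutation test over the arrays gave p = 0.00794, the smallest it can give with 5 arrays against 5. With only the arrays whose sample code in the labels has the plain prefix D, 4 ILK-deficient and 3 ILK-expressing, the difference was -0.62 and no longer passed (limma adjusted p = 0.0982).

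Hoxc13, the gene at the 5′ end of cluster C and a known regulator of hair keratin genes, had a difference of about the same size and did not pass. Its log2 values were 7.55, 7.92, 7.08, 7.86 and 8.15 in ILK-deficient replicates 1 to 5, and 7.82, 8.44, 7.70, 9.13 and 8.94 in ILK-expressing replicates 1 to 5. ILK-expressing replicates 4 and 5 were the highest, while the other ILK-expressing arrays lay within or just above the ILK-deficient range. The means were 7.71 ± 0.414 (SD, n = 5) and 8.41 ± 0.642 (SD, n = 5), and the difference was -0.69 (SE 0.3, 95% interval -1.36 to -0.03, limma adjusted p = 0.287, exact permutation p = 0.0873). Without ILK-expressing replicates 4 and 5 together, a choice made after seeing the data, the difference was -0.27 (limma adjusted p = 0.742). Without replicate 4 alone it was -0.51, and without replicate 5 alone -0.56. Replicates 4 and 5 were the highest arrays of the higher group, so the difference had to shrink in these fits. Over 24 alternative settings it lay between -0.87 and -0.27. With the replicate number as a block it was -0.69 (limma adjusted p = 0.0683).

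The immediate neighbours of Hoxc5 did not pass the test. Hoxc4, on its 3′ side, had log2 values of 7.09, 6.92, 7.04, 7.09 and 6.74 in ILK-deficient and 7.04, 7.09, 7.41, 7.04 and 7.22 in ILK-expressing replicates 1 to 5. The groups overlapped, and the difference was -0.19 (limma adjusted p = 0.398). Hoxc6, on the 5′ side and known from mammary gland and thorax, had 8.37, 7.96, 7.99, 7.89 and 7.94 against 8.06, 7.76, 7.98, 7.62 and 8.10. ILK-deficient replicate 1 stood above all other arrays for Hoxc6, and the difference had the opposite sign, 0.13 (limma adjusted p = 0.728).

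Hoxc8, which patterns the thoracic skeleton, was the most variable of the central genes of the cluster. Its log2 values were 8.79, 9.36, 8.49, 9.08 and 9.50 in ILK-deficient and 9.60, 9.13, 8.97, 8.75 and 9.74 in ILK-expressing replicates 1 to 5. The groups overlapped widely, and the difference of -0.19 had an interval of -0.71 to 0.32, so a 1.5-fold fall lay inside it. Hoxc9, which marks the lower thorax, differed by 0.01 (interval -0.17 to 0.19). Over the 6 genes of cluster C that were tested the median was -0.19, with 4 below 0 and 2 above.

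**Figure D2:**
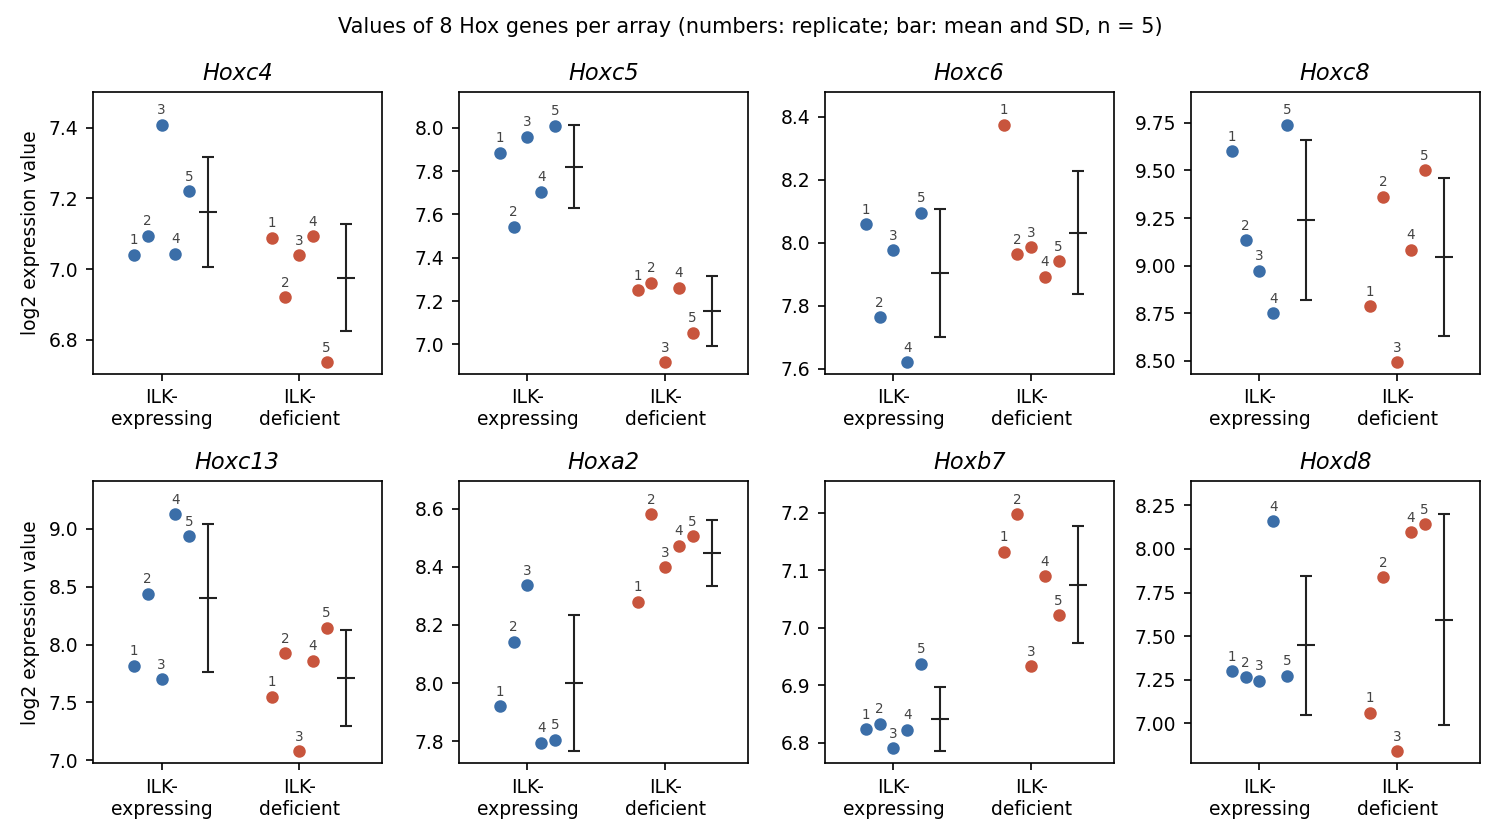
Log2 value (y axis, a separate range in each panel) of 8 Hox genes on every array, by genotype, with the replicate number above each point and the mean and SD (n = 5) as a bar. For Hoxc5 the ILK-deficient arrays lie at 6.92 to 7.28 and the ILK-expressing arrays at 7.54 to 8.01, while the genotypes overlap in the other 7 panels.

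Values of different probe sets are not comparable as levels, but the difference between 2 genes within an array cancels what is common to that array. The 30 pairs of neighbouring tested genes within a cluster, by paralogue number, were compared between the genotypes in this way. Genes below the filter were skipped, so Hoxc9 and Hoxc13 formed a pair. The exact permutation p was under 0.05 for 4 pairs, and none passed after adjustment over the 30 (smallest adjusted p = 0.119). Both pairs that did not overlap contained Hoxc5. Hoxc5 minus Hoxc4 averaged 0.18 ± 0.189 (SD, n = 5) without ILK against 0.66 ± 0.164 (SD, n = 5) with ILK (difference -0.48, exact permutation p = 0.00794). Hoxc6 minus Hoxc5 averaged 0.88 ± 0.222 (SD, n = 5) and 0.08 ± 0.122 (SD, n = 5) (difference 0.80, exact permutation p = 0.00794). These pairs carry the Hoxc5 values already given and are not separate evidence. The other pairs under 0.05 were in cluster A, Hoxa3 minus Hoxa2 (difference -0.37, exact permutation p = 0.0238) and Hoxa4 minus Hoxa3 (difference -0.20, exact permutation p = 0.0159).

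Genes of the same number in other clusters were paired likewise, a comparison chosen after seeing the data. Of the 33 pairs, 6 had an exact permutation p under 0.05 and none passed after adjustment over the 33 (smallest adjusted p = 0.0873). The 3 pairs without overlap were Hoxa5 minus Hoxc5, Hoxb5 minus Hoxc5 and Hoxb4 minus Hoxc4. Hoxa5, which patterns the neck and the airways, minus Hoxc5 averaged 1.10 ± 0.252 (SD, n = 5) without ILK against 0.33 ± 0.308 (SD, n = 5) with ILK, a difference of 0.76. Hoxb5 minus Hoxc5 averaged -0.26 ± 0.0568 (SD, n = 5) and -1.04 ± 0.306 (SD, n = 5), a difference of 0.78. For both paralogues alone the difference between the genotypes was small, 0.10 for Hoxa5 (interval -0.16 to 0.36) and 0.12 for Hoxb5 (interval -0.12 to 0.35). Hoxb4 minus Hoxc4 differed by 0.37, and the remaining pairs under 0.05 were Hoxb3 and Hoxd3, Hoxa4 and Hoxb4, and Hoxa7 and Hoxb7.

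**Figure D3:**
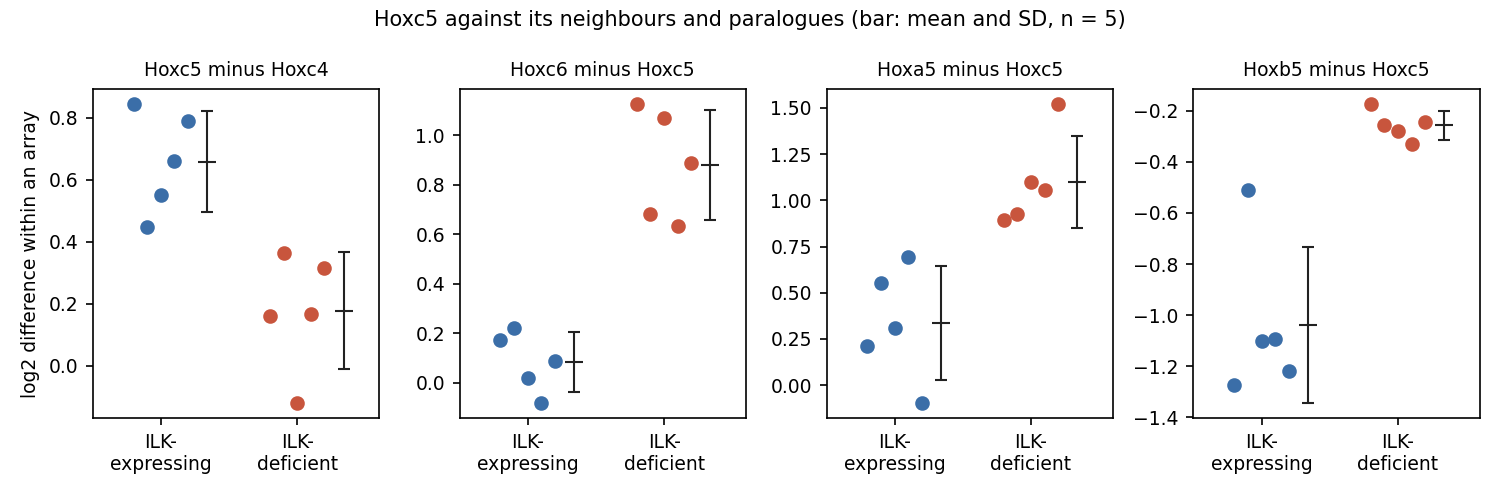
Log2 difference within an array (y axis, a separate range in each panel) between Hoxc5 and its neighbours Hoxc4 and Hoxc6 and its paralogues Hoxa5 and Hoxb5, by genotype, with points for single arrays and a bar for the mean and SD (n = 5). In each of the 4 panels the 5 ILK-deficient arrays lie to 1 side of the 5 ILK-expressing arrays, for Hoxc6 minus Hoxc5 with means of 0.88 and 0.08.

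In cluster A the 10 genes ranged from -0.13 to 0.45, with a median of 0.05, 6 above 0 and 4 below. The gene at the upper end was Hoxa2, which specifies the hindbrain and the second branchial arch. Its log2 values were 8.28, 8.58, 8.40, 8.47 and 8.50 in ILK-deficient and 7.92, 8.14, 8.34, 7.79 and 7.81 in ILK-expressing replicates 1 to 5. ILK-expressing replicate 3 was the only array of its group that reached into the ILK-deficient range. The difference was 0.45 (SE 0.111, 95% interval 0.20 to 0.69), and it lay just outside the threshold (limma adjusted p = 0.0526, exact permutation p = 0.0159). Without ILK-expressing replicate 3 it was 0.53 and passed (limma adjusted p = 0.0204). Hoxa2 also passed with a linear minimum of 100 (limma adjusted p = 0.0435) and with probe sets averaged per gene (limma adjusted p = 0.0222). In both of these the difference stayed 0.45, and fewer values were tested, 20904 and 18121 against 32046. They are not separate support. With only the arrays of plain prefix D the Hoxa2 difference was 0.30 and did not pass (limma adjusted p = 0.373). Over 24 alternative settings Hoxa2 passed in 3.

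Hoxa4, a cervical gene, was at the lower end of the cluster with -0.13 (interval -0.28 to 0.03, limma adjusted p = 0.439). Hoxa3, needed for thymus and parathyroid, differed by 0.08, Hoxa6 by 0.07 and Hoxa7, which is expressed in keratinocytes, by -0.09 (interval -0.35 to 0.16). For Hoxa9, known from blood progenitors, the difference was 0.10, with 1 ILK-deficient array, replicate 4, at 6.62 and all other arrays between 5.92 and 6.23. The posterior genes Hoxa10 and Hoxa11, which pattern the uterus, and Hoxa13, which patterns digits, differed by -0.07, 0.03 and -0.03, and none of these genes passed the test.

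The 9 genes of cluster B ranged from -0.08 to 0.23, with a median of 0.12, 7 above 0 and 2 below. Hoxb7, a trunk gene, had the highest value of the cluster. Its log2 values were 7.13, 7.20, 6.93, 7.09 and 7.02 in ILK-deficient and 6.82, 6.83, 6.79, 6.82 and 6.94 in ILK-expressing replicates 1 to 5. The groups met at 1 point, where ILK-expressing replicate 5 was level with ILK-deficient replicate 3. The difference of 0.23 was small beside that of Hoxc5 (SE 0.063, 95% interval 0.09 to 0.37, limma adjusted p = 0.0735, exact permutation p = 0.0159).

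The genes Hoxb2, Hoxb3 and Hoxb4, which lie side by side, had differences of 0.20, 0.15 and 0.19. None passed (limma adjusted p = 0.595, 0.457 and 0.408), and in each of them ILK-expressing replicate 4 was the lowest of the 10 arrays, at 8.38, 8.66 and 7.31. Hoxb1, a hindbrain gene at the 3′ end, differed by -0.04, and Hoxb13 at the 5′ end, known from prostate and tail, by -0.08. Hoxb6 and Hoxb9, genes of the trunk, differed by 0.07 and 0.01.

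In cluster D the 9 genes lay between -0.09 and 0.15, with a median of 0, and 7 of them had values near the filter, with means from 5.61 to 5.94 on the log2 scale. Hoxd13 and Hoxd12, genes of digits and external genitalia, differed by 0.00 and -0.05, and Hoxd9 and Hoxd11 by 0.01 and 0.00. Hoxd1, Hoxd3 and Hoxd4, at the anterior end, differed by -0.03, -0.03 and 0.03. Hoxd10, a gene of the lumbar cord and limb, differed by -0.09 (interval -0.43 to 0.25).

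Hoxd8, a trunk gene, stood out from cluster D in its spread and not in its difference. Its log2 values were 7.06, 7.84, 6.84, 8.09 and 8.14 in ILK-deficient and 7.30, 7.26, 7.24, 8.16 and 7.27 in ILK-expressing replicates 1 to 5. The ILK-deficient arrays fell on both sides of 4 close ILK-expressing arrays, while ILK-expressing replicate 4 was the highest of the 10. The difference was 0.15 (interval -0.48 to 0.78, limma adjusted p = 0.907), so a 1.5-fold rise lay inside it.

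By position along the clusters, the 7 genes numbered 1 to 3 had a median of 0.08, the 14 numbered 4 to 8 a median of 0.07 and the 13 numbered 9 to 13 a median of 0. The genes numbered 4 to 8 held both directions, from -0.67 for Hoxc5 to 0.23 for Hoxb7. The 2 lowest values of the whole set, -0.69 and -0.67, were of Hoxc13 and Hoxc5, of the same cluster but with Hoxc6, Hoxc8 and Hoxc9 between them.

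Within a genotype the SD of a Hox gene had a median of 0.108 in ILK-deficient arrays, with a range of 0.0291 to 0.605, and of 0.117 in ILK-expressing arrays, with a range of 0.033 to 0.642. The highest were of Hoxd8 among ILK-deficient and of Hoxc13 among ILK-expressing arrays. Averaged over the 34 genes, an array deviated from the gene means by -0.13 (ILK-deficient replicate 3) to 0.07 (ILK-deficient replicate 4). ILK-deficient replicate 3 was the lowest array for 7 genes, and replicate 4 was the highest for 7 and above the gene mean for 25 of 34. Cluster C spread most, with a mean deviation of -0.38 in ILK-deficient replicate 3 and 0.41 in ILK-expressing replicate 5. ILK-expressing replicate 5 also carries a sample code prefix that no other array has, and its part in these values was not tested apart from leaving it out.

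**Figure D4:**
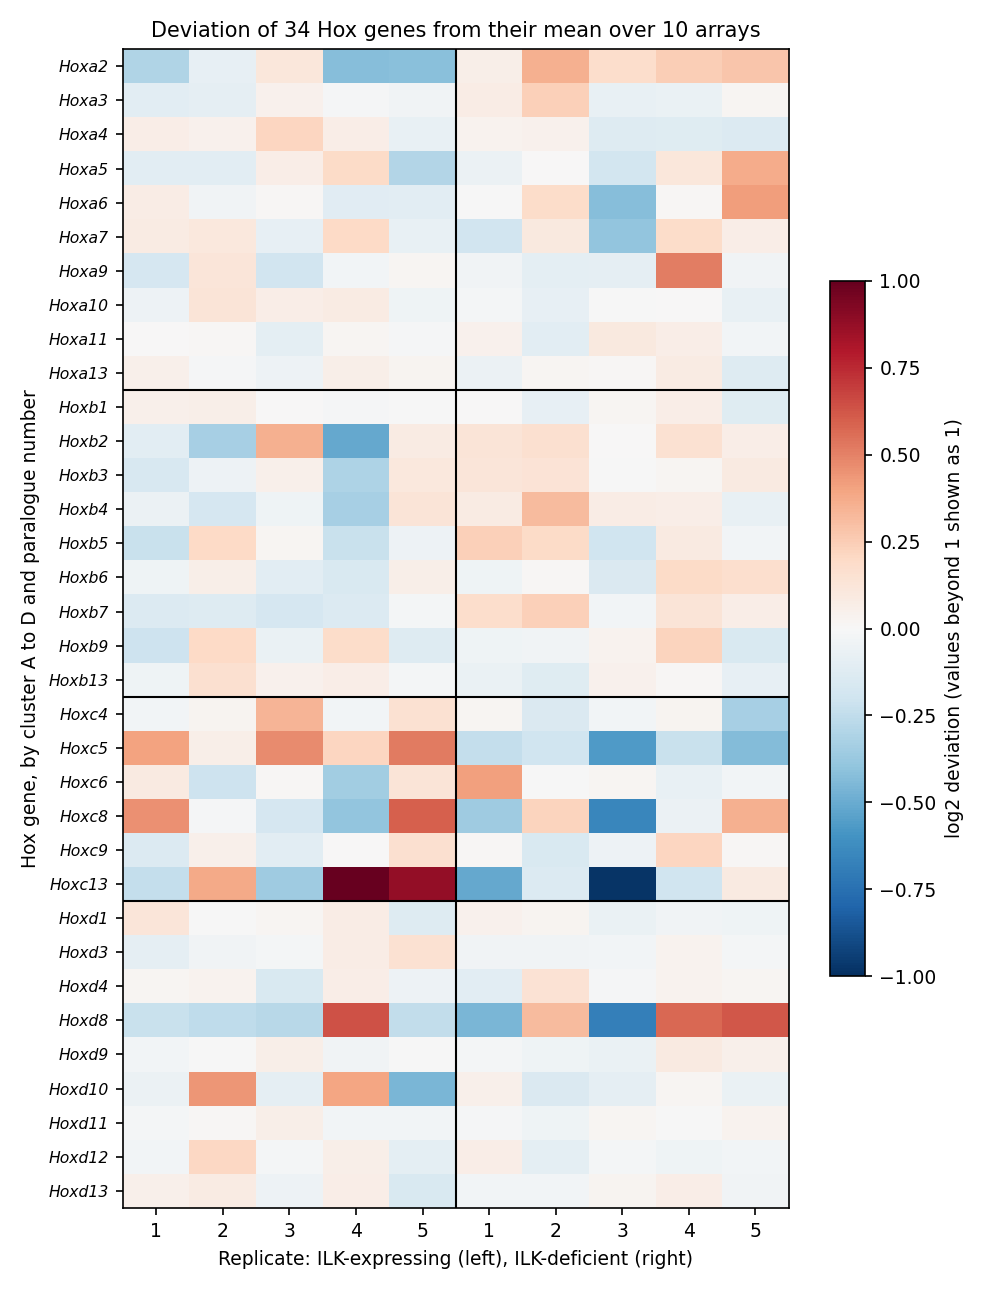
Log2 deviation of each of 34 Hox genes (rows, by cluster and paralogue number) from its mean over the 10 arrays (columns, ILK-expressing left and ILK-deficient right), red above and blue below. Hoxc5 is red in the 5 ILK-expressing and blue in the 5 ILK-deficient arrays, whereas Hoxc13, Hoxc8 and Hoxd8 vary by array within a genotype.

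Hoxc5 was also set beside what else is encoded in and around the clusters. The probe set named for Mir615, the miRNA gene inside Hoxc5, differed by 0.06 (limma adjusted p = 0.843), from means of 6.45 ± 0.091 (SD, n = 5) and 6.39 ± 0.127 (SD, n = 5). It reads the transcribed region and not the mature arms printed above. Mir10a, Mir196a-1 and Mir196a-2 differed by -0.05, 0.02 and 0.00, and Mir10b and Mir196b were below the filter. Of 10 further cluster genes measured, among them these miRNA genes, Evx1, Evx2, Hottip and Hoxd3os1, 6 were tested and none passed, with a median of 0.02. Over all probe sets 3.78% passed. Evx1 and Hottip were below the filter, and Evx2 differed by 0.05 and Hoxd3os1 by 0.01. Of the genes that flank the clusters, 14 were tested and none passed, beside the same 3.78%. In sets this small a lack of calls is no result about the region. The median of the flanking genes was -0.02. It ranged from -0.34 for Copz1, a subunit of the coat of transport vesicles next to cluster C (limma adjusted p = 0.132), to 0.24 for Tax1bp1, a receptor of selective autophagy next to cluster A (limma adjusted p = 0.0885). Mtx2, a mitochondrial import gene beside cluster D, differed by -0.13.

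Hox proteins bind DNA together with homeodomain proteins of the Pbx, Meis and Pknox families. Of 8 such cofactor genes tested, 2 were higher in ILK-deficient epidermis, none was lower, and the median was 0.28, beside 3.78% called over all probe sets, 900 higher and 311 lower. Pbx3 values were 10.28, 10.20, 10.07, 10.12 and 10.27 in ILK-deficient and 9.84, 9.72, 9.80, 9.51 and 9.89 in ILK-expressing replicates 1 to 5, without overlap. The difference was 0.44 (SE 0.0815, limma adjusted p = 0.0174). Meis1 values were 8.12, 7.99, 7.86, 7.88 and 8.00 against 7.71, 7.37, 7.60, 7.70 and 7.60, again without overlap. The difference was 0.37 (SE 0.0804, limma adjusted p = 0.0306). Pbx2 (0.32, limma adjusted p = 0.0628) and Meis2 (0.72, limma adjusted p = 0.0928) had positive values and did not pass. Neither Pbx3 nor Meis1 passed with the arrays of plain prefix D only or without ILK-deficient replicate 5, and 1 of the calls was lost without ILK-deficient replicate 1 or 2 or ILK-expressing replicate 3, 4 or 5. The summed linear value of the 8 genes was 3400 to 3740 in ILK-deficient and 2340 to 2980 in ILK-expressing arrays.

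The state of Hox chromatin is kept by Polycomb genes, which hold it silent, and trithorax genes, which hold it active. Of 15 Polycomb genes tested, 2 were higher and none lower, with a median of 0.12, again beside 3.78% of all probe sets, most of them higher. These were Ezh2, the H3K27 methyltransferase (0.27, limma adjusted p = 0.0338), and Suz12, a core subunit of the same complex (0.33, limma adjusted p = 0.0320). Jarid2, an accessory subunit of that complex (0.05, limma adjusted p = 0.790), and Rnf2, the H2A ubiquitin ligase of the other Polycomb complex (0.32, limma adjusted p = 0.0530), did not pass. Of 8 trithorax and H3K27 demethylase genes, Kmt2a, the H3K4 methyltransferase of Hox promoters, was higher (0.58, limma adjusted p = 0.0254) and none was lower, with a median of 0.15, beside the same 3.78%. The demethylase Kdm6a (0.33, limma adjusted p = 0.342) and Ash2l, a core subunit of the H3K4 methyltransferase complexes (0.09, limma adjusted p = 0.529), did not pass. The calls among Polycomb genes were lost, to 0, in 9 of the 10 fits that left out 1 array, the exception being ILK-expressing replicate 1. The Kmt2a call was lost, to 0, without ILK-deficient replicate 1, 3 or 5 or ILK-expressing replicate 2.

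Of 4 hair follicle genes tied to Hoxc13, 2 were lower in ILK-deficient epidermis and none higher, with a median of -1.43, beside 3.78% called over all probe sets, of which 311 were lower. Dsg4, which encodes a cadherin that joins hair shaft cells, had log2 values of 6.38, 6.58, 6.63, 6.80 and 6.28 in ILK-deficient and 8.72, 9.26, 7.79, 11.23 and 10.62 in ILK-expressing replicates 1 to 5. The groups lay apart, and the ILK-expressing arrays spread widely, with replicates 4 and 5 highest as for Hoxc13 (difference -2.99, SE 0.551, limma adjusted p = 0.0167). Krt35, a hair keratin, differed by -1.82 (limma adjusted p = 0.0390). Krt32, another hair keratin (-1.05, limma adjusted p = 0.112), and Foxn1, a transcription factor of the hair cortex (-0.11, limma adjusted p = 0.865), did not pass. From histology, the study itself reported that hair follicles were fewer and appeared less developed in ILK-deficient epidermis. Fewer hair shaft cells and less RNA per cell cannot be told apart here, and a part of Hoxc13 in these values was not tested. The count was 1 in every fit that left out 1 array except the fit without ILK-expressing replicate 3, where it was 2, and it was 1 without ILK-expressing replicates 4 and 5 together.

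Among 22 other homeobox genes of skin tested, 4 were higher, 1 was lower and the median was 0.02. Those higher were Lhx2, a factor of the follicle bulge and placode (0.85, limma adjusted p = 0.0231), the Iroquois patterning genes Irx1 (0.82, limma adjusted p = 0.00489) and Irx5 (0.76, limma adjusted p = 0.00883) and Tgif1, a repressor in TGF-beta signalling (0.47, limma adjusted p = 0.0145). The lower gene was Dlx3, a factor of epidermal differentiation and hair (-0.80, limma adjusted p = 0.0332). The other Iroquois genes measured did not pass, among them Irx4 (0.28, limma adjusted p = 0.273) and Irx2 (0.15, limma adjusted p = 0.444). The count fell from 5 to 3 without ILK-deficient replicate 4 or 5 or ILK-expressing replicate 2. The Hox genes had 1 of 34 called and these homeobox genes 5 of 22, each beside the 3.78% of the array, and the difference between the sets was not tested. Of other transcription factors of body site, 5 of 11 passed the filter and none differed at the threshold (median 0.08), while Tbx5, Tbx15, Pitx1, En1, Emx2 and Shox2 were below the filter.

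**Figure D5:**
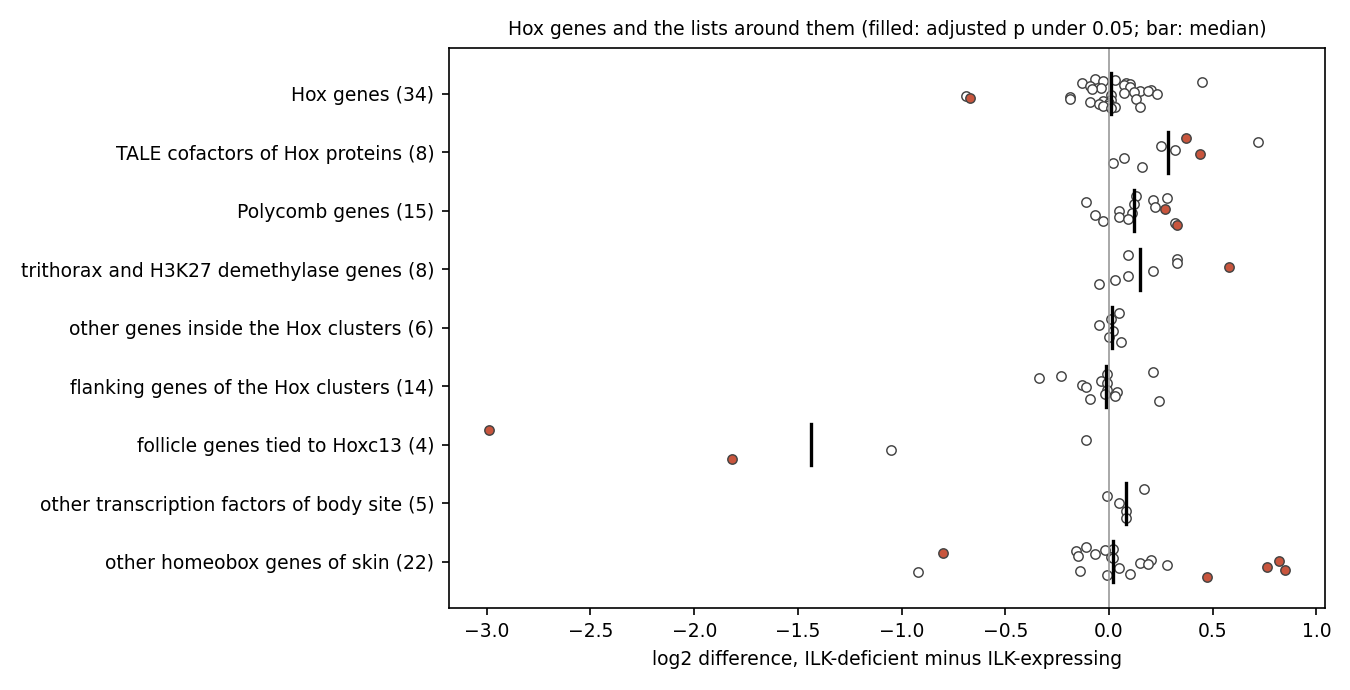
Log2 difference between ILK-deficient and ILK-expressing epidermis (x axis) of each tested gene of the Hox set and of the lists around it (rows, with the number tested), filled where the adjusted p is under 0.05, with the median as a bar. The Hox genes lie around 0.01 with Hoxc13 and Hoxc5 apart at -0.69 and -0.67, and the 4 follicle genes have a median of -1.43.

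Cell types other than keratinocytes also express Hox genes, so their markers are given beside these results. Over all probe sets 3.78% were called, 900 higher and 311 lower. Of 12 dermal fibroblast markers tested, 1, Thy1, was higher (0.39, limma adjusted p = 0.0421) and none was lower, with a median of 0.16. Their summed linear value was 4300 to 7530 in ILK-deficient and 2250 to 6170 in ILK-expressing arrays. Dcn, with the highest values of the list, weighs heavily in this sum, with log2 means of 12.17 and 11.41. The Dcn difference of 0.77 did not pass (limma adjusted p = 0.467), and its lowest array was ILK-expressing replicate 4, at 9.74. The defining genes were measured, with Col1a1 at 0.18, Col1a2 at 0.40 and Pdgfra at 0.08, and none of these 3 passed.

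Of 8 melanocyte markers tested, 5 were higher and none lower, beside 3.78% called over all probe sets. Those higher were Sox10, Mitf, Dct, Tyr and Pmel. Tyrp1 had the largest difference of the list, 2.23, and lay just outside the threshold (limma adjusted p = 0.0511). Mlana (0.72, limma adjusted p = 0.133) and Kit (0.71, limma adjusted p = 0.113) had positive values and did not pass. The median of the 8 was 1.05. Their summed linear value was 7620 to 14000 in ILK-deficient against 2460 to 5100 in ILK-expressing arrays. Markers of dermal papilla (1 of 6, Hhip), leukocytes (1 of 6, Lyz2), Schwann cells (0 of 4), endothelium (0 of 5), adipocytes (0 of 5), skeletal muscle (0 of 5) and Merkel cells (0 of 5) gave the calls in brackets, all higher in ILK-deficient epidermis. They stand beside the same 3.78%, and a single call in a list this short is no result about a cell type. The part of any of these cells in the Hox values was not tested.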

How the data were processed

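Dispase-separated epidermis of 3-day-old mice was measured on 10 arrays, 5 for each genotype, grouped by the labels of the samples. The authors deposited 1 normalized log2 value per probe set and array. Their methods name RMA Express 0.4.1, GC-RMA and Partek Genomics Suite 6.5, and which of them made the table is not given in the sources used here. The table holds no detection calls, and the number of arrays limits the precision. Differences in dim genes may be compressed, which was not tested.

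Values were used as deposited. The genotypes were compared with limma 3.58.1 under R 4.3.3, without a block, on the 32046 probe sets that reached 50 on the linear scale (log2 5.64) on at least 5 arrays. The Benjamini-Hochberg adjustment ran over these probe sets, and a gene was called at an adjusted p under 0.05. Single values and gene pairs were compared by a two-sided exact permutation test over the 252 splits of the arrays. Other filters, scalings, tests, call rules, blocks, probe set rules and subsets of arrays were tried, and the fit was tested on simulated data.

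All Hox genes are named. Of most other gene lists, the members called and up to 2 of the highest mean that were not called are named. All further cluster genes measured are named. Of the flanking genes, Tax1bp1 is named besides, as the upper end of the range. Of the transcription factors of body site, only those below the filter are named. Cell type markers are given by counts, with the defining ones named. Trp63, Thy1, Dcn, Hhip, Lyz2 and the melanocyte markers are named too, chosen after their values were seen. Members and lists were chosen with earlier results of these data known, so no list's count is independent support. Symbols came from the platform annotation, and names and miRNA sequences from RefSeq (GRCm38.p6). Neighbour order within a cluster followed the paralogue number.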

Additional observations from a re-analysis of the deposited data

Results flagged for a closer look

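For each of the 37 Hox genes the 5 arrays of a genotype were searched for 1 value far from the rest, by the gap to its nearest neighbour over the range of the group. Of 74 such groups 6 held one, and chance gives about 1 in 20. Hoxd8 stood at 8.16 in ILK-expressing replicate 4, with the next array at 7.30. Hoxa9 stood at 6.62 in ILK-deficient replicate 4, with the next at 6.07. Hoxc6 stood at 8.37 in ILK-deficient replicate 1, with the next at 7.99. The other 3 were low genes with small gaps, Hoxd3 at 5.96 in ILK-deficient replicate 4 (next 5.91), Hoxa11 at 5.76 in ILK-expressing replicate 3 (next 5.85) and Hoxc10, below the filter, at 5.70 in ILK-expressing replicate 2 (next 5.55). None of the 6 was in Hoxc5 or Hoxc13.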

How the results depend on the processing

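Over 24 alternative settings Hoxc5 differed by -0.74 to -0.61 and passed in 22. The settings reuse the same arrays, so this count is no independent support. Each Hox gene had 1 probe set, so taking the lowest probe set of a gene repeated the main fit and had to pass. Averaging probe sets left the Hox values unchanged, and the 1.5-fold rules used an unadjusted p. With the replicate number as a replicate block, 0 Hox genes were called (Hoxc5 -0.67, limma adjusted p = 0.0599, 4 at an unadjusted p under 0.05). The labels do not say whether the numbers pair the mice. Deviations of same-numbered arrays correlated by -0.296 to 0.113, and 0 ILK-deficient arrays were closest to their own number. These values cannot decide it, since paired mice need not resemble each other across all probe sets. In the fit with the replicate block 608 of all probe sets passed, against 1211. The calls were 1 among cofactor, 0 among Polycomb, 1 among follicle and 2 among other homeobox genes. With arrays of plain prefix D only, 294 probe sets and 0 Hox genes were called (4 at an unadjusted p under 0.05), 0 among cofactor, Polycomb and trithorax genes, 1 among follicle and 2 among other homeobox genes, and Hoxc5 minus Hoxc4 was -0.47 (exact permutation p = 0.0571).

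With the prefix as a block Hoxc5 passed (-0.63, limma adjusted p = 0.0247), and the list counts were 0 for Polycomb, 0 for trithorax, 1 for follicle and 3 for other homeobox genes. Without ILK-expressing replicates 4 and 5 together they were 1 for cofactor, 0 for Polycomb, 0 for trithorax, 1 for follicle and 2 for other homeobox genes. Centring on array medians gave 1 cofactor and 1 Polycomb call, and a second quantile normalization 2 trithorax calls. The count of Hox genes was 2 with a linear minimum of 100 (Hoxa2, limma adjusted p = 0.0435), 2 by the 1.5-fold rule with limma's unadjusted p, 1 by that rule with an ANOVA p (added after seeing the data), and 3 with probe sets averaged per gene, where 18121 values were tested (limma adjusted p = 0.0222 for Hoxa2 and 0.0371 for Hoxb7).

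Leaving out 1 array gave 1 to 2 Hox calls, 0 to 2 cofactor, 0 to 2 Polycomb, 0 to 1 trithorax, 1 to 2 follicle and 3 to 6 other homeobox calls. Hoxc5 minus Hoxc4 then lay between -0.53 and -0.41 and Hoxc6 minus Hoxc5 between 0.73 and 0.86. Of 799 values of single Hox genes under alternatives 44 had the opposite sign, all of genes called in neither fit. The prefix as a block was not run for gene pairs. The causes of these changes were not tested, other than that fewer arrays or fewer tests entered some fits.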
